A study of Mus musculus with 4 samples.

Results

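The genes described are 5 chemokine ligands, Ccl3, Ccl4, Ccl5, Ccl22, and Cxcl10, chosen by name from the 31053 genes of the authors' feature table, and all 5 were found there. The scRNA-Seq experiment used splenic B cells of WT mice, purified by removal of the other cells. Bregs-CpG (2 samples) were kept with CpG, an agonist of TLR9, for 3 days. Bregs-TLR (2 samples) received the same culture and, for the last 5 hours, LPS, PMA, and ionomycin as well, so CpG was common to every sample and no unstimulated B cells were part of the comparison. The barcodes are numbered by library, 5 to 8, and name no sample, so the 4 libraries are given side by side as 1 pooled sample and the treatments could not be compared. The labels do not say whether the samples came from separate mice. Of 19920 barcodes, 18534 were kept, each with 1000 or more genes detected and less than 10% of its UMIs from mitochondrial genes.

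Chemokines are small secreted proteins that direct leukocytes along gradients through G protein-coupled receptors. CCL3, CCL4, and CCL5 attract effector T cells, monocytes, and other leukocytes, and activated B cells are a known source of CCL3 and CCL4. CCL22 binds CCR4, a receptor of regulatory T cells, and is best known from dendritic cells. CXCL10 binds CXCR3 on activated T cells and NK cells and is a classical target of interferon signaling. In lymphoid tissue, B cells that make CCL3 and CCL4 after antigen receptor or TLR stimulation can draw T cells to themselves.

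Libraries 5, 6, 7, and 8 held 4196, 4714, 5621, and 4003 passing cells with medians of 8752, 8785, 10355, and 10077 UMIs per cell and median mitochondrial shares of 7.22%, 7.18%, 4.61%, and 4.65%. A UMI stands for 1 captured mRNA molecule counted at its 3' end, so its number does not grow with gene length, and levels are given as UMIs per 1000000 UMIs (CPM). The B cell markers Cd79a, Cd79b, Ms4a1, Pax5, and Cd22 summed to 7043, 7306, 1506, and 1498 CPM in that order of libraries. At least 2 of their UMIs were present in 98.3% to 100% of the cells with Ccl3 or with Ccl4, and in 93.2% and 100% of the cells with Ccl5 and 96.0% and 96.8% of those with Cxcl10 in libraries 7 and 8. Markers of other cell types also moved with the pair. At least 2 UMIs of 32 such markers were in 7.19% and 8.54% of the cells with Ccl3 in libraries 5 and 6, against 2.62% and 2.87% of those without, and in 10.9% and 6.70% of the cells with Ccl4, against 2.62% and 3.15%. Of these, the myeloid markers reached 2 UMIs in 3.59% and 4.13% of the cells with Ccl3, against 0.932% and 0.896%. Most UMIs of that list were of Fcer1g and Cd68, with 789 and 464 over all libraries, while Lyz2 had 0. The dendritic markers reached 2 UMIs in 0% and 0.551% of the cells with Ccl3, against 0.181% and 0.437%. The cells with Ccl3 had medians of 13100 and 12802 UMIs in these libraries. With the cells that held such markers left out, Ccl4 was in 27.1% and 31.02% of the cells with Ccl3, compared with 29.9% and 31.4% in all cells. Of the 32 markers of T, NK, myeloid, dendritic, neutrophil, and erythroid cells, 14 had no UMI in any passing cell, among them Cd3e, Trbc2, Nkg7, Lyz2, S100a8, and S100a9. The T cell list reached at most 0.788 CPM, the NK list 1.09, the neutrophil list 0.519, the dendritic list 5.65, and the myeloid list 7.94. The hemoglobin gene Hbb-bt was the exception, which brought the erythroid list to 219 and 285 CPM in libraries 7 and 8, against 4.59 and 4.30 in libraries 5 and 6. Kept cells of different libraries shared 1 to 8 barcode sequences per pair.

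Ccl3, Ccl4, and Ccl5 lie in the chemokine cluster of chromosome 11 in GENCODE vM21 on GRCm38. Ccl3 (ENSMUSG00000000982, minus strand, 3 exons) spans chr11:83647844-83649355, and Ccl4 (ENSMUSG00000018930, plus strand, 3 exons) spans chr11:83662584-83664683, so that 13228 bases separate the neighbors, which point away from each other. Ccl5 (ENSMUSG00000035042) lies 117325 bases from Ccl3 at chr11:83525778-83530518. Ccl22 (ENSMUSG00000031779) is at chr8:94745590-94751699. Cxcl10 (ENSMUSG00000034855) is at chr5:92346638-92348889 inside Art3, a gene of the opposite strand that had 3 UMIs in all passing cells. No other annotated gene overlaps a member.

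The results turn on Ccl3 and Ccl4 being counted in the same cells. Their GENCODE transcripts have no stretch of 25 bases in common, nor do those of any other pair of the 5 genes. Reads shorter than that, or with mismatches, were not examined.

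RefSeq promoters of Ccl3, Ccl22, and Cxcl10 (3 of the 5 genes, GRCm38.p6) were searched on both strands for the NF-kB consensus, an AP-1 motif (TGANTCA), and a core of the interferon-stimulated response element, ISRE (GAAANNGAA). The windows of Ccl3, which had many UMIs, and Cxcl10, which had few, are shown 5' to 3' on the gene's strand, with matches in capitals. They are the 250 bases before RefSeq's transcript start, at chr11:83649379-83649628 and chr5:92348890-92349139.
Ccl3: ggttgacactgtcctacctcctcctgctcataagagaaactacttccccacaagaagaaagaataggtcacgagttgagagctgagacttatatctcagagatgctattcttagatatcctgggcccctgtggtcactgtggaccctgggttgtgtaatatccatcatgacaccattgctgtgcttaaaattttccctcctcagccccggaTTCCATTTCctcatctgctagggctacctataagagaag
Cxcl10: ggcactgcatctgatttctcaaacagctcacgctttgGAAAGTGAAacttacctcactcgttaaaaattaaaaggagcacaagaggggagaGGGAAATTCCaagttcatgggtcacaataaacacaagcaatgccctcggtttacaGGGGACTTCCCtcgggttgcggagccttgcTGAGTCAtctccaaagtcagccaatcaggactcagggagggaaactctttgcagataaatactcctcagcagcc
The Cxcl10 window held 1 ISRE match, 1 AP-1 match, and 3 NF-kB matches, of which a pair overlap by all but 1 base, the Ccl3 window held 1 ISRE match, and the Ccl22 window, not shown, held none. Over 32851 promoters, 7.25% of the windows of this length held an NF-kB match, 6.75% an AP-1 match, and 7.13% an ISRE match. A match is a run of letters and not a shown binding site.

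Ccl4 and Ccl3 accounted for nearly all UMIs of the group, with 40764 and 11466, beside 488 of Ccl5 and 146 of Cxcl10. Ccl22 had no UMI in any of the 18534 cells, as was true of 13279 of the 31053 genes. Over all libraries, Ccl3 was detected in 2456 cells (13.3%), Ccl4 in 2581 (13.9%), Ccl5 in 75 (0.405%), and Cxcl10 in 56 (0.302%).

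Ccl3, also known as macrophage inflammatory protein 1-alpha, was at 40.8 CPM (95% CI 39.0 to 42.7) in library 5, 42.0 (40.2 to 43.8) in library 6, 69.5 (67.5 to 71.6) in library 7, and 66.7 (64.3 to 69.1) in library 8. Intervals here and below cover counting error only. Those of levels and ratios treat UMIs as independent and leave out the spread between cells. They are therefore too narrow where few cells hold most UMIs. Libraries 7 and 8 did not differ beyond counting error (ratio 1.04, 0.995 to 1.09), and neither did libraries 6 and 5 (1.03, 0.966 to 1.09), while 8 was above 6 by 1.59-fold (1.504 to 1.68). The highest library, 7, was 1.70-fold (1.61 to 1.80) above the lowest, 5, which is close to the median gene, for which that fold was 1.72 over 12198 genes.

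Ccl4, the related ligand known as macrophage inflammatory protein 1-beta, was at 70.7 CPM (68.2 to 73.2), 61.2 (59.1 to 63.4), 323 (318 to 327), and 304 (299 to 309) in libraries 5 to 8. The step lay between library 8 and library 5, at 4.31-fold (4.14 to 4.48), and the fold of library 7 over library 6 was 5.27 (5.08 to 5.47). Library 7 was above library 8 by 1.06-fold (1.04 to 1.08) and library 5 above library 6 by 1.15-fold (1.098 to 1.21). The spread between cells is not part of these intervals, so whether such small steps exceed it was not tested. In library 6, 1 cell with 581 Ccl4 UMIs held 18.4% of the gene's UMIs, and without it the level was 49.99 CPM. Of the 4 members with UMIs, Ccl4, Ccl5, and Cxcl10 passed 2-fold between their highest and lowest library and Ccl3 did not, where 38.8% of all genes with enough UMIs passed. The same 3 passed 4-fold, beside 13.8% of genes. Libraries that are far apart in Ccl4 were also far apart in B cell markers and Hbb-bt, and the part of these in the fold was not tested. With the cells that held at least 2 UMIs of other cell types' markers left out, mostly for Hbb-bt, the fold of library 7 over library 6 was 5.06.

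Ccl5, which attracts T cells, had no UMI in library 5, 7 UMIs in 3 cells of library 6, 296 in 44 cells of library 7, and 185 in 28 cells of library 8. Of the 7 UMIs in library 6, 5 were in 1 cell. The levels were 0.136 CPM (0.0545 to 0.279) in library 6, 4.65 (4.14 to 5.21) in library 7, and 4.05 (3.49 to 4.68) in library 8. Library 7 did not differ from library 8 beyond counting error (1.15, 0.952 to 1.39). With 3 counts as the floor for library 5, library 7 was 69.5-fold higher. Ccl5 UMIs came many to a cell, so that fold is no strict lower bound. By cells, Ccl5 was in 0.783% (0.569 to 1.05) of library 7, against 0% of library 5 with an upper limit of 0.0879%. In libraries 7 and 8, 59.1% and 50% of the cells with Ccl5 held at least 2 UMIs of other cell types' markers, against 32.2% and 36.2% of the cells without, mostly through Hbb-bt. With such cells left out library 7 was 40.1-fold above the floor of library 5, and the part of these cells in the level was not tested.

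Cxcl10, the interferon-induced CXCR3 ligand, had no UMI in libraries 5 and 6, 65 in 25 cells of library 7, and 81 in 31 cells of library 8. At 1.77 CPM (1.41 to 2.20), library 8 was 1.74-fold (1.24 to 2.44) above library 7 at 1.02 (0.788 to 1.30). Library 8 was 26.5-fold above the floor set for library 5. A few cells held many of the Cxcl10 UMIs, so the fold over the floor is no strict lower bound. A single cell with 16 UMIs held 19.8% of the Cxcl10 UMIs of library 8. For Ccl22, the CCR4 ligand, 0 of 5621 cells in library 7 allows a share of up to 0.0656% of cells with a UMI, and 0 of 4003 in library 8 up to 0.0921%.

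**Figure D1:**
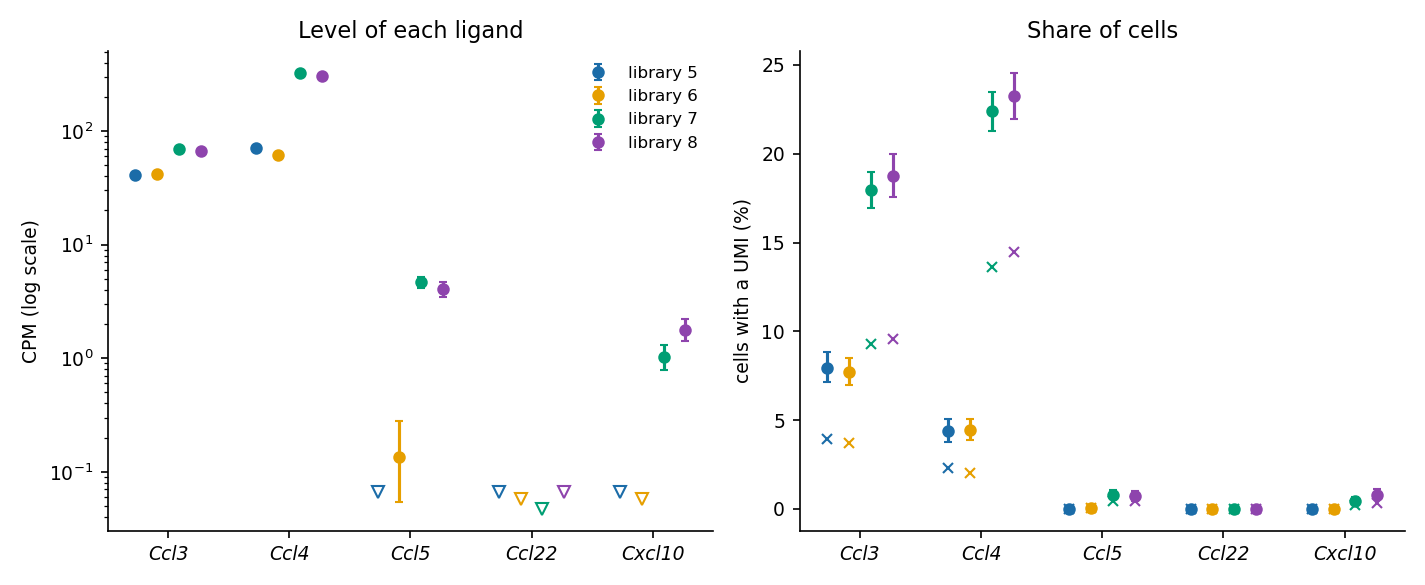
The left panel plots the level of each ligand in CPM on a log axis for libraries 5 to 8, with 95% Poisson intervals, and open triangles at the floor of 3 counts where a library had no UMI. The right panel plots the share of cells with a UMI (points, with 95% Clopper-Pearson intervals) and the same share after each cell was thinned to 3000 UMIs (crosses). Ccl4 lies at 61.2 to 70.7 CPM in libraries 5 and 6 and at 304 to 323 CPM in libraries 7 and 8, and Ccl22 is at the floor throughout.

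The ligands were detected in a minority of cells. Ccl3 was detected in 7.96% (7.16 to 8.82) of the cells of library 5, 7.70% (6.96 to 8.50) of library 6, 17.9% (16.9 to 19.0) of library 7, and 18.8% (17.6 to 20.01) of library 8. The shares for Ccl4 were 4.39% (3.79 to 5.05), 4.43% (3.86 to 5.06), 22.4% (21.3 to 23.5), and 23.2% (21.9 to 24.6). Libraries 5 and 6 thus had more cells with Ccl3 than with Ccl4, although Ccl4 had more UMIs there, and in libraries 7 and 8 the order of the shares was the opposite. With every cell thinned to 3000 UMIs, and 5, 8, 21, and 17 shallower cells left out, Ccl3 remained in 3.92%, 3.70%, 9.30%, and 9.58% of cells and Ccl4 in 2.32%, 2.03%, 13.6%, and 14.5%. No cell type known to lack these genes was at hand as a background. The 68, 101, and 56 cells of libraries 5, 6, and 7 in a cluster led by Jchain had the lowest shares, with Ccl4 in 0%, 0.990%, and 8.93% at median depths of 9512, 8557, and 11301 UMIs, although that cluster is no such type.

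Within the positive cells, most counts were low and a few were very high. A positive cell held a median of 2 Ccl3 UMIs in each library and a median of 2, 1, 3, and 3 Ccl4 UMIs. The highest Ccl4 counts in a cell were 289, 581, 345, and 304. The cell with 581 had 9573 UMIs in all, so that Ccl4 was 6.07% of its captured mRNA. At least 100 Ccl4 UMIs were found in 9, 6, 41, and 28 cells. The highest Ccl3 counts were 150, 224, 68, and 39, larger in libraries 5 and 6 than in 7 and 8, against the order of the mean levels.

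The concentration was stronger in libraries 5 and 6. There, 7 and 6 cells held 50% of all Ccl4 UMIs (0.167% and 0.127% of cells), against 70 and 63 cells in libraries 7 and 8 (1.25% and 1.57%). The same share of Ccl3 UMIs was held by 32, 25, 116, and 103 cells. The top 1% of cells by Ccl4 held 88.6%, 91.5%, 44.6%, and 39.5% of its UMIs. If the UMIs had been spread over cells in proportion to depth alone, Ccl3 would have been found in 33.4% and 34.8% of the cells of libraries 5 and 6, several times the measured shares. The variance of Ccl4 across cells was 143, 214, 103, and 79.8 times its mean, which ranked 4, 6, 9, and 11 among 12049, 12218, 12197, and 11748 genes. A variance over 2 times the mean was found for 7.75%, 7.97%, 6.13%, and 6.88% of genes, and for each ligand with at least 10 UMIs in a library. Ccl3 ranked 53, 14, 76, and 113, Ccl5 ranked 39 and 69 in libraries 7 and 8, and Cxcl10 206 and 157.

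**Figure D2:**
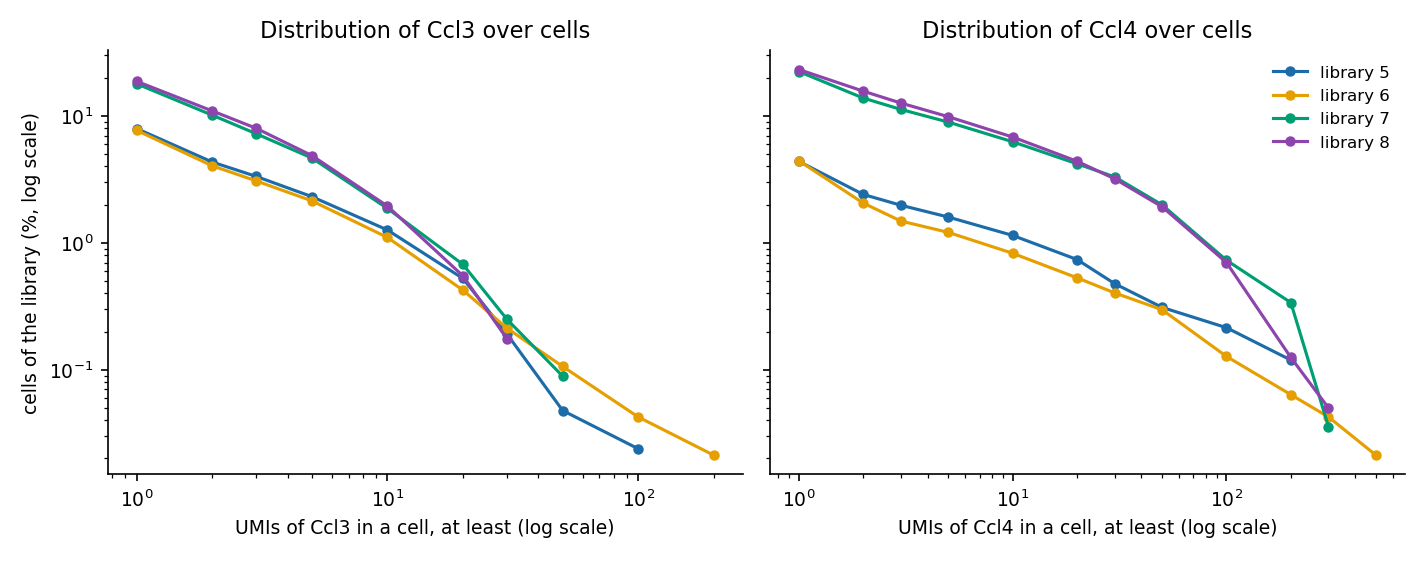
The x axis is a number of UMIs of Ccl3 (left) or Ccl4 (right) in a cell, and the y axis the percent of a library's cells with at least that many, both on log axes. The curves of libraries 7 and 8 lie above those of libraries 5 and 6 for Ccl4 up to 200 UMIs, and for Ccl3 the curves come together at 30 UMIs, a count reached by 0.175% to 0.249% of cells.

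Ccl3 and Ccl4 were found in the same cells far more often than their shares would give. Both were detected in 100 cells of library 5, 114 of library 6, 510 of library 7, and 421 of library 8, where independent detection would give 14.6, 16.1, 226, and 174. Of the cells with Ccl3, 29.9% (25.1 to 35.2), 31.4% (26.7 to 36.5), 50.6% (47.5 to 53.7), and 56.1% (52.4 to 59.6) also held Ccl4. Of the cells without Ccl3, it was 2.18%, 2.18%, 16.2%, and 15.7%. Seen from the other side, 54.3%, 54.5%, 40.5%, and 45.3% of the cells with Ccl4 also held Ccl3.

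Deeper cells detect more of every gene, and the cells with both had medians of 15229, 14643, 11823, and 11884 UMIs, against 8508, 8532, 10018, and 9692 for the cells with neither. Within deciles of depth, the odds ratio of co-detection was 13.5, 12.2, 4.94, and 5.82, compared with 19.2, 20.5, 5.29, and 6.88 over all cells. In cells thinned to 3000 UMIs, Ccl4 was found in 29.5%, 27.8%, 43.9%, and 48.5% of the cells with Ccl3 and in 1.21%, 1.04%, 10.5%, and 10.9% of those without.

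**Figure D3:**
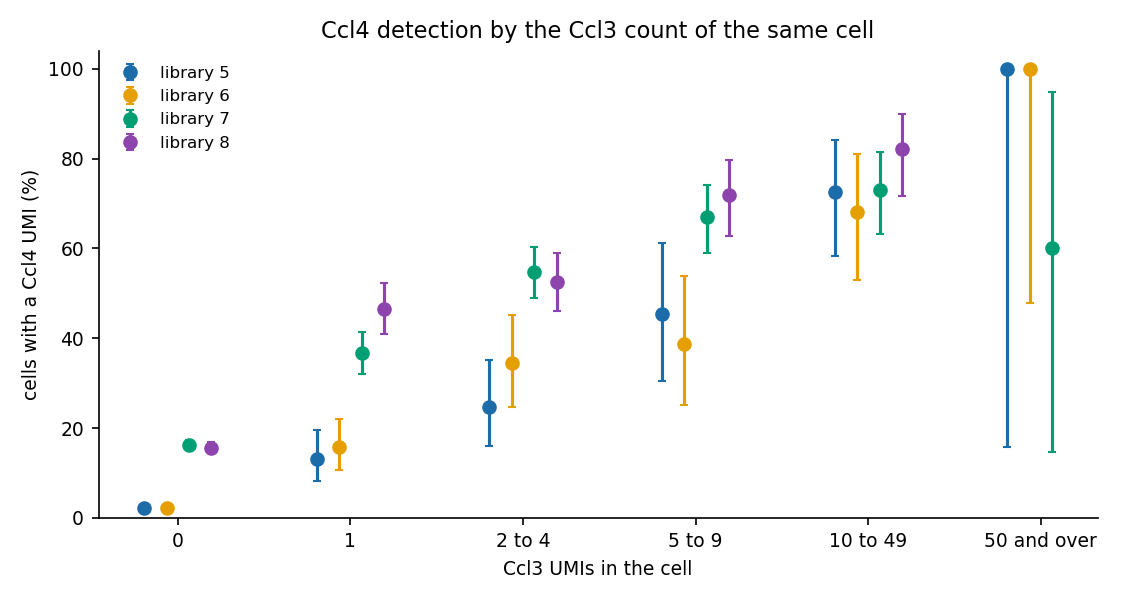
Percent of cells with a Ccl4 UMI, by the number of Ccl3 UMIs in the same cell, in libraries 5 to 8, with 95% Clopper-Pearson intervals. The share climbs from 2.18% to 16.2% of cells without Ccl3 to between 68.1% and 82.1% of cells with 10 to 49 Ccl3 UMIs. The class of 50 and over holds 2, 5, and 5 cells in libraries 5, 6, and 7 and none in library 8.

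The share of cells with Ccl4 climbed with the Ccl3 count. In library 5 it went from 13.2% of cells with 1 Ccl3 UMI to 24.7% with 2 to 4, 45.5% with 5 to 9, and 72.5% (58.3 to 84.1) with 10 to 49. Library 8 went from 46.5% through 52.5% and 71.8% to 82.1% (71.7 to 89.8) over the same classes. The mean number of Ccl4 UMIs rose along with it, from 0.0852 in cells without Ccl3 to 41.5 in cells with 10 to 49 in library 5, and from 1.09 to 43.5 in library 8. Across the 4196, 4714, 5621, and 4003 cells, Pearson's r of the log-normalized counts was 0.608, 0.632, 0.465, and 0.505, a description of cells that share a library and differ in depth. Among 10390, 10420, 10230, and 10192 genes present in at least 1% of a library's cells, each gene of the pair was the other's closest partner, and the median r with all of them lay between -0.00164 and 0.00438.

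The pair was not locked in a fixed ratio. There were 1.73 (1.63 to 1.84) Ccl4 UMIs for each Ccl3 UMI in library 5, 1.46 (1.38 to 1.54) in library 6, 4.64 (4.49 to 4.80) in library 7, and 4.56 (4.39 to 4.75) in library 8. Cells with at least 10 UMIs of both genes together numbered 82, 79, 447, and 342. Among these, 4, 1, 110, and 80 held no Ccl3 UMI, and 14, 15, 29, and 14 held no Ccl4 UMI. Ccl4 exceeded Ccl3 in 58.5%, 54.4%, 82.1%, and 84.5% of them. The cells that held at least 10 Ccl4 UMIs and no Ccl3 UMI were 4 of 48 and 1 of 39 in libraries 5 and 6, and 110 of 352 and 80 of 273 in libraries 7 and 8.

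**Figure D4:**
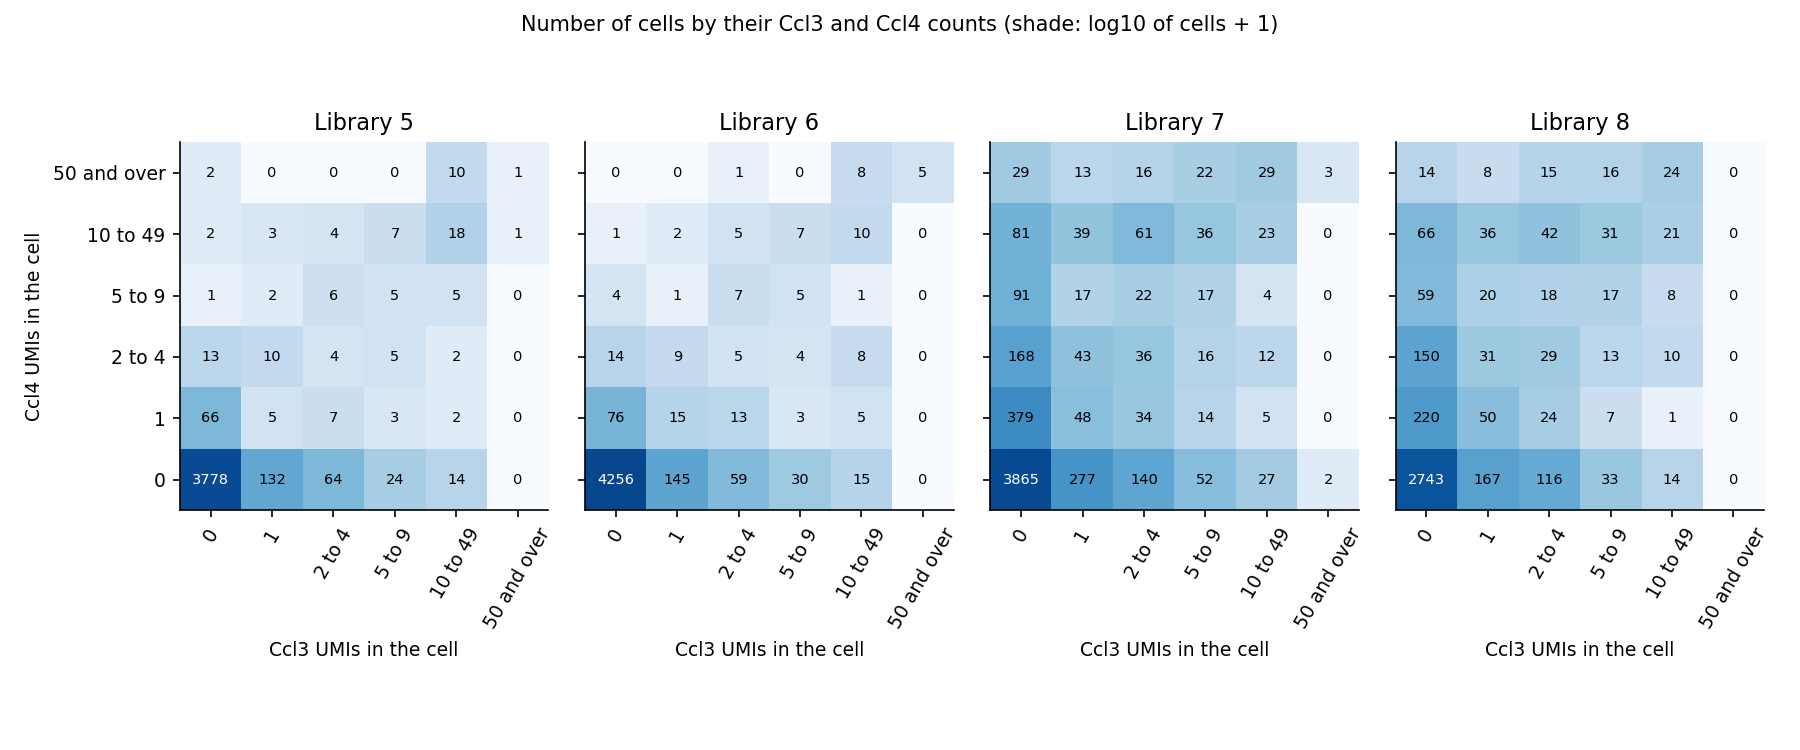
Each panel counts the cells of 1 library by their Ccl3 UMIs (x axis) and Ccl4 UMIs (y axis) in 6 classes, and the shade is the log10 of the number of cells plus 1. In the column without Ccl3, 81 and 66 cells of libraries 7 and 8 held 10 to 49 Ccl4 UMIs, against 2 and 1 cells in libraries 5 and 6.

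Cells with the rare ligands also held Ccl4 in part. In library 8, 13 of the 28 cells with Ccl5 held Ccl4 (46.4%, 27.5 to 66.1), beside 23.1% of the cells without Ccl5, and in library 7 it was 16 of 44 (36.4%, 22.4 to 52.2) beside 22.3%, an interval that includes the value of the other cells. Ccl4 was in 10 of the 25 cells with Cxcl10 in library 7 (40%, 21.1 to 61.3) beside 22.3%, and in 11 of 31 in library 8 (35.5%, 19.2 to 54.6) beside 23.1%, so both intervals included the share in the other cells. Ccl3 was in 20.5% and 32.1% of the cells with Ccl5 beside 17.9% and 18.7%, and in 36.0% and 32.3% of those with Cxcl10 beside 17.9% and 18.7%. Of these Ccl3 shares, that for Cxcl10 in library 7 alone had an interval above the other cells (17.97 to 57.5). Ccl5 and Cxcl10 met in 2 cells of each library. In the cells with at least 10 Ccl3 and Ccl4 UMIs, Ccl5 was at 10.7 and 12.5 CPM in libraries 7 and 8. In cells with neither it was at 4.002 and 3.13 CPM. Cxcl10 was at 4.22 and 6.78 CPM, compared with 0.386 and 1.08. Single cells held 41 and 34 of the Ccl5 UMIs and 13 and 16 of the Cxcl10 UMIs of these libraries. The weight of such cells in these levels was not tested. Across all cells, Pearson's r of Ccl5 was -0.00663 and 0.0257 with Ccl3 and 0.0371 and 0.0252 with Ccl4. For Cxcl10 it was 0.0622 and 0.0218 with Ccl3 and 0.0678 and 0.0301 with Ccl4. No UMI of the 5 genes was counted in 90.04%, 90.2%, 68.1%, and 67.8% of cells, which depends on depth and is no share of cells without expression, and 1 cell, in library 8, held 4 of them.

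Cxcl10 is known as an interferon target, and 10 interferon-stimulated genes (Ifit1, Ifit2, Ifit3, Isg15, Rsad2, Oasl1, Usp18, Mx1, Gbp2, and Irf7) were summed in the cells that held it. They were at 1213 CPM in the 25 Cxcl10 cells of library 7 and 745 CPM in the 31 of library 8, against 157 and 140 CPM in the other cells. In the cells with Ccl5 the same sum was 366 and 457 CPM, against 160 and 143 CPM. Of the 10 genes, 3 reached 10 CPM in a library. The ubiquitin-like Isg15 was the most abundant of the list, at 25.2, 24.6, 116, and 108 CPM by library. Gbp2 was at 19.2, 19.1, 26.6, and 21.8 CPM, and Irf7 went the other way, at 10.6, 10.8, 2.62, and 2.04. Ifit2, Ifit3, Rsad2, Oasl1, Usp18, and Mx1 were also lower in libraries 7 and 8 than in libraries 5 and 6, and Ifit1 was higher.

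Il10, the cytokine by which regulatory B cells are commonly defined, was set beside the ligands cell by cell, and cells with Il10 held Ccl3 and Ccl4 more often than cells without. Il10 itself was at 13.7, 11.1, 255, and 253 CPM and was detected in 7.48%, 7.45%, 70.3%, and 71.6% of cells. Ccl3 was found in 21.0% (16.6 to 25.9) of the Il10-positive cells of library 5 and in 6.90% (6.13 to 7.75) of the others, and library 6 gave 21.1% and 6.62%. In library 7 the shares were 18.9% (17.7 to 20.2) and 15.6% (13.9 to 17.5), and in library 8 20.6% and 14.2%. For Ccl4 they were 11.1% and 3.84% in library 5, 13.7% and 3.69% in library 6, 24.8% and 16.6% in library 7, and 25.9% and 16.6% in library 8. The Il10-positive cells were deeper in each library, with medians of 12200 against 8566 UMIs in library 5 and 10508 against 9213 in library 8, and the part of depth was not tested. As levels, which are scaled by depth, Ccl3 was at 118, 152, 70.0, and 68.5 CPM in the Il10-positive cells. In the others it was at 31.2, 27.8, 68.2, and 60.8 CPM, so the gap was small in libraries 7 and 8. Ccl4 was at 315, 267, 342, and 337 CPM against 40.1, 34.6, 266, and 199. Ccl5 was found in 0.658% of Il10-positive and 1.08% of the other cells of library 7, and in 0.732% and 0.617% in library 8, with overlapping intervals.

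The genes whose counts across cells were most like those of Ccl3, among 7429 present in at least 5% of the cells of each library, were Nfkbiz, an inducible IκB protein (mean r over the 4 libraries 0.13), Mir155hg, the host gene of microRNA-155 (0.13), the immediate early factor Egr1 (0.12), and the NF-kB subunits Nfkb1 and Rel (0.12 each). For Ccl4 they were Ccl3 (0.55), the polyamine enzyme Odc1 (0.16), the surface receptor Slamf7 (0.15), Nfkb1 (0.15), and the mitochondrial import factor Timm8a1 (0.15). Apart from the pair itself these values are weak, and they are given as a description. Some means hide uneven libraries. In libraries 5 to 8, r with Ccl4 was 0.274, 0.205, 0.0760, and 0.0251 for Timm8a1 and 0.134, 0.0456, 0.227, and 0.202 for Slamf7. For Nfkbiz, r with Ccl3 was 0.0496, 0.0734, 0.184, and 0.197. Nfkb1 was more even, at 0.131 to 0.162 with Ccl4. Ccl4 was left out of the ranking for Ccl3 because it was in fewer than 5% of cells in libraries 5 and 6, and Ccl5, Ccl22, and Cxcl10 were too rare to rank.

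The cells with at least 10 Ccl3 and Ccl4 UMIs can be set beside the cells with neither. Of 16 regulators listed for these genes, mainly of the NF-kB and IRF families, 16 had a UMI and 15 reached 10 CPM in a library. Nfkb1 was at 161, 158, 207, and 175 CPM in the high cells and at 76.4, 73.1, 132, and 115 CPM in the cells with neither. Rel was at 188, 215, 276, and 282 CPM against 91.9, 91.7, 205, and 195. Irf4, a factor induced by B cell activation, was at 13.9, 23.1, 69.6, and 56.5 CPM against 4.42, 6.11, 40.3, and 38.1. The step was smaller for the inhibitor gene Nfkbia, at 824, 912, 1279, and 1142 CPM against 769, 803, 1302, and 1205, and the direction was not the same in all libraries. Not all of the list rose. Irf8 was at 160 and 148 CPM in the high cells of libraries 7 and 8, against 211 and 205. Nfatc1 was at 7.63 and 5.55 CPM there, against 10.5 and 9.68. Both were higher in the high cells of libraries 5 and 6. The intervals of the difference included 0 for Bcl6 in each library and for Rela in libraries 5, 6, and 8. Nfkb2 and Tnfaip3 were higher in each library. Slamf7 was at 45.5, 38.0, 83.7, and 68.8 CPM against 20.7, 20.8, 24.6, and 22.4. Slamf7, Nfkb1, and Rel were among the genes most correlated with Ccl3 or Ccl4 across these same cells. Their higher levels here are thus no separate result. B cell markers were lower in the high cells. Cd79b, a chain of the antigen receptor complex, was at 1359, 1402, 174, and 184 CPM against 2243, 2293, 325, and 342, and its partner Cd79a at 2225, 2215, 1017, and 996 CPM against 3172, 3330, 1048, and 1045. Pax5 and Cd22 were lower in each library, by 0.27 to 0.55 and 0.36 to 0.49 on the log2 scale. Ms4a1 was lower by 0.55 and 0.75 in libraries 5 and 6 and by 0.23 in library 7, and in library 8 the interval of its difference included 0. The high cells were also deeper, with medians of 15591, 14108, 11903, and 11552 UMIs against 8508, 8532, 10018, and 9692, and the part of depth in these values was not tested.

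The levels of Ccl3 and Ccl4 differed between quintiles of depth and of mitochondrial share, in ways that were not the same in all libraries. From the quintile of cells with the fewest UMIs to that with the most, Ccl3 went from 12.8 to 63.8 CPM in library 5 and from 6.99 to 53.1 in library 6, but only from 72.8 to 80.0 in library 7 and from 53.1 to 75.4 in library 8. Ccl4 went from 50.6 to 110 CPM, 5.33 to 60.3, 312 to 323, and 295 to 319 in libraries 5 to 8, without a steady rise in any. From the lowest to the highest quintile of mitochondrial share, Ccl4 went from 176 to 18.4 CPM in library 5, 138 to 7.55 in library 6, 510 to 234 in library 7, and 349 to 273 in library 8. The fall was not steady in libraries 5, 6, and 8. The share of cells with Ccl4 moved less, from 6.31% to 2.86%, 5.73% to 2.86%, 22.3% to 20.2%, and 23.7% to 21.6%. Few cells held most Ccl4 UMIs of libraries 5 and 6, and their weight in these levels was not tested. Ccl3 was also lower in the highest than in the lowest quintile in libraries 5 (75.6 to 15.0 CPM) and 6 (71.9 to 14.9). Its end quintiles went the other way in libraries 7 (68.4 to 77.2) and 8 (59.3 to 68.5), without a steady rise. The quintiles between were at 64.3, 64.1, and 73.7 CPM in library 7 and at 72.2, 78.3, and 54.4 in library 8. The part of depth and mitochondrial share in the differences between libraries was not tested.

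Clusters were formed without any chemokine gene, at a resolution of 0.3, and gave 7 groups, named A to G by size. Clusters A (6957 cells, with Ltb and Rnase6 among its leading genes), D (916, led by Ly6k, Ccl3, and Ly6d), and E (884, led by Nusap1, Ccnb2, and Hist1h2ae) came almost wholly from libraries 5 and 6. Clusters B (6810, led by Hbb-bt, Cd86, and Shisa3), C (2181, led by Ung, Timeless, and Mcm5), and F (528, led by Pbk, Cdk1, and Ccna2) came almost wholly from libraries 7 and 8. Cluster G (258 cells, led by Jchain, Epcam, and Tmed6) drew on all of them and held 5 of 7 plasma cell markers at 50 CPM or more. The proliferation genes Mki67 and Top2a were both above that level in clusters E and F alone, and summed to 934 and 929 CPM there.

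In libraries 5 and 6, Ccl4 was lower in cluster A than in D. It was at 5.59 CPM (4.79 to 6.49) and 21.5 (20.04 to 23.1) in cluster A of libraries 5 and 6, and at 437 (419 to 455) and 286 (272 to 301) in cluster D, where it was detected in 15.1% and 12.4% of cells. Single cells weighed on the values of library 6, which without the top cell of each cluster were 12.3 CPM in A, 180 in D, and 26.8 in E. Cluster D, 444 and 466 cells of libraries 5 and 6, held 40 of 82 and 29 of 79 of the cells with at least 10 Ccl3 and Ccl4 UMIs. Cluster E was between them, at 53.6 and 47.2 CPM. Ccl3 followed the same order, with 15.6 and 21.3 CPM in A, 47.2 and 66.9 in E, and 173 and 122 in D, and without the top cell the values of library 6 in E and D were 42.6 and 86.1 CPM. At a resolution of 0.1 cluster D was not separate, and the highest Ccl4 level in a cluster was 66.6 and 55.9 CPM in these libraries. The full list of 6 B cell markers summed to 8023, 5447, and 5561 CPM in clusters A, D, and E. The part of cluster in the lower B cell markers of the cells with at least 10 Ccl3 and Ccl4 UMIs was not tested.

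In libraries 7 and 8 the pair was spread more evenly. Ccl4 was at 373 (367 to 379) and 311 (305 to 318) CPM in cluster B, 259 and 347 in C, and 203 and 167 in F, so that the order of B and C was not the same in both libraries. Ccl3 had another order, with 115 and 116 CPM in F against 66.5 and 58.5 in B and 66.0 and 70.3 in C. Ccl5 was also highest in F, at 9.88 (7.29 to 13.1) and 11.5 (8.43 to 15.3) CPM, against 3.76 and 2.63 in B. That rested on 1 cell in each library, with 41 of the 48 UMIs in F of library 7 and 34 of the 47 in F of library 8, and without these cells Ccl5 was at 1.44 and 3.19 CPM in F. Cxcl10 was at 0.883 and 0.666 CPM in B, 1.09 and 3.87 in C, and 2.06 and 3.42 in F, the last from 10 and 14 UMIs. In cluster G, Ccl4 was at 0, 1.98, and 23.6 CPM and Ccl3 at 1.36, 0.990, and 22.3 CPM in libraries 5, 6, and 7.

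**Figure D5:**
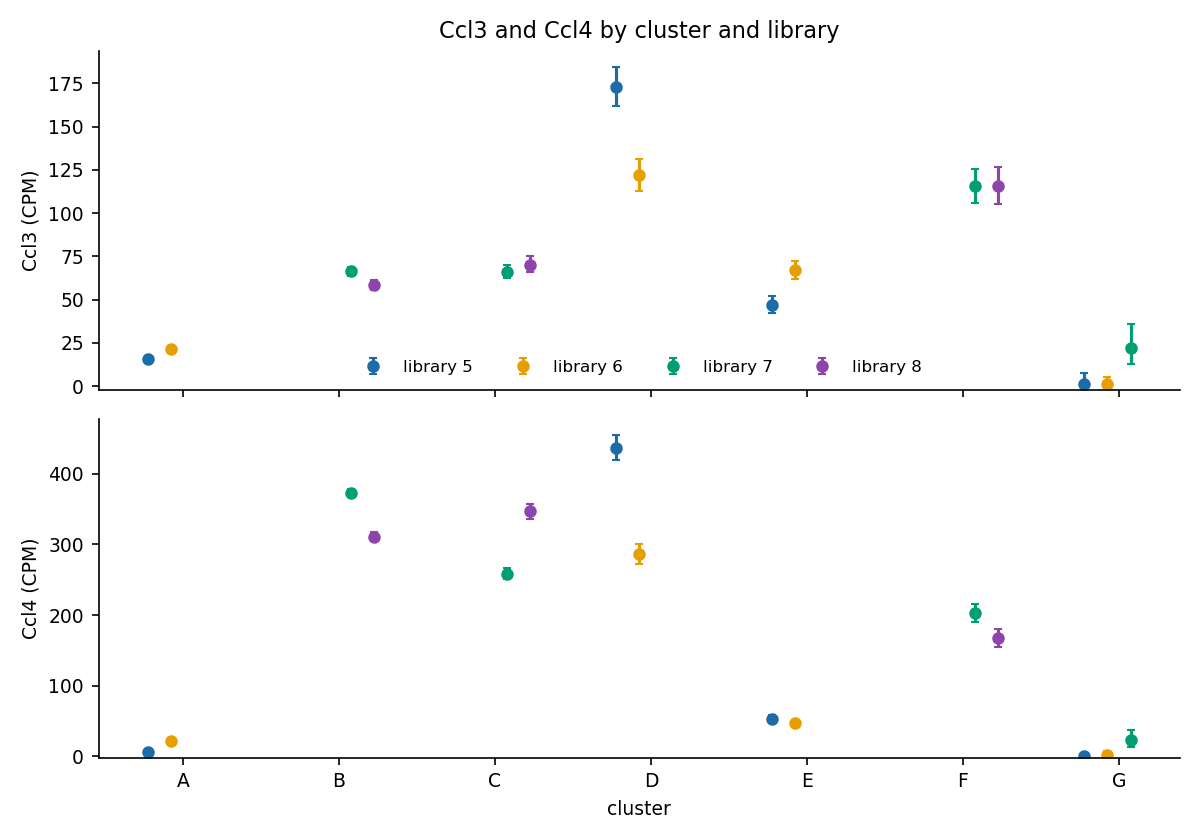
Level of Ccl3 (top) and Ccl4 (bottom) in CPM by cluster, for each library with at least 50 cells in the cluster, with 95% Poisson intervals. In libraries 5 and 6 both genes peak in cluster D, and in libraries 7 and 8 Ccl3 is highest in cluster F while Ccl4 is highest in B or C.

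Co-detection of the pair was present within each of the clusters in which it could be counted. Cells with Ccl3 held Ccl4 in 14.5% and 18.0% in cluster A of libraries 5 and 6, compared with 1.35% and 1.55% of the cells without Ccl3. In cluster D it was 44.7% and 48.8%, compared with 7.14% and 4.69%, and in cluster E 45.1% and 41.4%, compared with 5.12% and 5.66%. Clusters B, C, and F of libraries 7 and 8 gave 45.8% to 56.7%, compared with 12.6% to 18.5%. Per Ccl3 UMI there were 2.52 and 2.35 Ccl4 UMIs in cluster D, 1.14 and 0.705 in E, 5.61 and 5.32 in B, and 1.76 and 1.44 in F. Clusters A and C gave 0.358 and 1.009 and 3.92 and 4.93. In libraries 5 and 6 the ratio was thus highest in D and its order in A and E was not the same in both, and in libraries 7 and 8 it was highest in B and lowest in F. Single cells weighed on the order of A and E in library 6. There, 1 cell held 332 of the 773 Ccl4 UMIs of A. In E, single cells held 224 of the 613 Ccl3 UMIs and 187 of the 432 Ccl4 UMIs. The ratios without such cells were not tested.

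Few other chemokine ligands were counted. Of 31 further ligand genes, 30 were in the feature table, 12 had a UMI, and only Ccl25, a ligand of CCR9, reached 10 CPM, at 12.7, 12.7, 13.1, and 12.5 by library, above Ccl5 and Cxcl10 in each. Ccl27a was at 2.79, 2.92, 1.30, and 1.38 CPM, above Ccl5 and Cxcl10 in libraries 5 and 6. Ccl9 and Ccl6, which lie between Ccl5 and Ccl3 on chromosome 11, had 46 and 1 UMIs in all passing cells. Of 22 receptor genes, 19 had a UMI, and Ccr7 and Cxcr5, which position B cells in lymphoid tissue, reached 10 CPM. Ccr7 was at 121, 131, 57.7, and 62.4 CPM and Cxcr5 at 22.9, 24.6, 5.91, and 5.58, both with libraries 5 and 6 above 7 and 8, against the order of the 4 detected ligands. Within a library Ccr7 ran the other way, at 188, 205, 107, and 92.2 CPM in the cells with at least 10 Ccl3 and Ccl4 UMIs and at 115, 125, 48.5, and 53.7 in those with neither. Cxcr5 did not, at 20.9, 20.9, 4.38, and 6.16 CPM against 23.2, 24.7, 6.03, and 5.19. The interval of its difference included 0 in each library.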

How the data were processed

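Single-cell RNA was measured in 4 samples of cultured mouse B cells with Chromium 3' libraries. The authors used bcl2fastq, Cell Ranger (version 3.1.0, mm10, Ensembl 93 genes), and its aggr step, which evens depth between libraries, and deposited whole UMI counts per gene and cell, neither scaled per cell nor imputed. The matrix has 35989 columns. The 19920 barcodes were placed on the last of them, and the 16069 columns before were not used here. The shift in mean expression over windows of 400 columns was at percentiles 99.4, 60.8, 100, and 89.5 of all columns where libraries 5 to 8 would start, so the start of library 6 was not visible. Doublets were not removed.

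UMIs were summed per library (NumPy, version 2.4.6), with exact Poisson, Clopper-Pearson, and conditional 95% intervals (SciPy, version 1.17.1). A library without a UMI was set to a floor of 3 counts in ratios. Such ratios are strict lower bounds only if UMIs are independent. Genes entered the fold background with at least 40 UMIs in all and the variance background with at least 10 in the library. Seurat (version 5.3.0) formed clusters from 1980 variable genes, 20 components, and 20 neighbors. The correlation ranking was tested on simulated data in which the tied genes shared a strong burst, and not for correlations as weak as most given here. edgeR (version 4.0.16) gave TMM factors only. The edgeR or DESeq2 test foreseen between the conditions needed the sample of each barcode and was left out.

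The NF-kB motif was searched as its 10-base consensus, with R for A or G and Y for C or T. The 5 genes were given, and these and the lists were chosen with earlier results of these data known. Named beyond them were the 5 genes most correlated with each, list genes of at least 10 CPM, Il10, and the 3 leading genes of each cluster, of which some are not reported here. Hbb-bt, Fcer1g, Cd68, Ccl9, Ccl6, Ccl27a, Cd79b, Art3, and markers at 0 were named after their values were seen. The alternatives on cell filters, scaling, and thinning are given at the end.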

Additional observations from a re-analysis of the deposited data

How the results depend on the processing

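No paired analysis was possible because the barcodes name no sample. The folds of Ccl3 and Ccl4 between the highest and lowest library kept their direction under all 9 alternatives. Those of Ccl5 and Cxcl10 did too, but their lowest library had no UMI and stood at the floor, so that direction was largely fixed in advance. The fold over the floor ran from 40.1 to 72.1 for Ccl5 and from 21.3 to 34.4 for Cxcl10. Without a limit on mitochondrial UMIs the fold of Ccl4 was 5.50. Without cells holding 2 UMIs of other cell types' markers, which left out 1823 and 1453 cells of libraries 7 and 8, mostly through Hbb-bt, the folds of Ccl3 and Ccl4 were 1.83 and 5.06. They were 1.49 and 4.68 without mitochondrial, ribosomal protein, and immunoglobulin genes in the denominator, 1.57 and 4.95 with TMM, 2.04 and 6.24 as a mean over cells, and 1.83 and 6.35 without the top cell of the gene in each library. That last choice, and the marker filter with hemoglobin not counted, were added after seeing the data. The share of Ccl3-positive cells with Ccl4 became 37.4% in library 5 with at least 2 UMIs of both genes, and 43.9% and 48.5% in libraries 7 and 8 after thinning. With genes in at least 1% of cells, 2 of the 5 genes most like Ccl3 were kept, and Ccl4, Egr2, and Egr3 joined. The highest cluster level of Ccl3 became 47.5 and 66.9 CPM in libraries 5 and 6 at a resolution of 0.1 and 154 in library 5 at 0.5. That of Ccl4 became 66.6, 55.9, 337, and 322 CPM in libraries 5 to 8 at 0.1, and 341 and 379 in libraries 5 and 7 at 0.5. The causes were not tested. With 1 pooled sample, counting intervals leave out variation between mice and cultures, and those of levels and ratios the spread between cells.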
